A study of Homo sapiens with 8 samples.

Results

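The sgRNAs described here target the subunits of Polycomb repressive complex 1 (PRC1), a chromatin complex that represses genes by placing a single ubiquitin on histone H2A. They were chosen by the target gene named in the deposited tables: 19 genes with 10 sgRNAs each, 190 of the 7855 sgRNAs counted, which covered 779 genes and included 80 non-targeting sgRNAs. The choice went by gene name and not by a measured value, but it was made with earlier results of these data known. The genes were the RING ligases RING1 and RNF2, the PCGF proteins BMI1, PCGF1, PCGF2, PCGF3, PCGF5 and PCGF6, the chromobox proteins CBX2, CBX6, CBX7 and CBX8, the Polyhomeotic proteins PHC1, PHC2 and PHC3, the paralogs RYBP and YAF2, and KDM2B and BCOR.

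The sgRNAs were counted in T1-160 cells, which were derived from the triple-negative breast cancer line SUM159PT by repeated exposure to rising doses of Taxol (paclitaxel) until they resisted the drug. All libraries came from T1-160 cells that expressed Cas9, were infected with the pooled EPIKOL library of sgRNAs against chromatin regulators at a low multiplicity of infection, and were selected with puromycin in the presence of verapamil, an inhibitor of drug efflux. The groups were 3 libraries from cells grown in 160 nM Taxol for 16 population doublings (Taxol), 3 from cells grown for as long in the vehicle DMSO (DMSO), and 2 from cells collected right after puromycin selection, before either treatment (AP, replicates 1 and 3). All cells were of 1 resistant line. The labels do not state if replicates were infected or grown separately, and the p-values therefore measure only the spread between these samples, which may be technical.

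Every PRC1 complex has a RING ligase, RING1 or RNF2, bound to a PCGF protein that sets the type of the complex. Canonical PRC1 holds BMI1 or PCGF2 together with a CBX protein, which binds trimethylated lysine 27 of histone H3, and a PHC protein, which compacts chromatin by forming polymers. Variant PRC1 holds RYBP or YAF2 in place of CBX, and the variant that forms around PCGF1 also holds BCOR or its relative BCORL1 and KDM2B, which brings the complex to unmethylated CpG islands.

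The libraries held 2045984 to 11771418 reads, or 260.47 to 1498.6 reads per sgRNA, as recovered from the table of Taxol and DMSO for these groups and from that of DMSO and AP for AP. The lowest count of a PRC1 sgRNA was 14 reads, in Taxol 3, and none was at 0 in any library. The 190 PRC1 sgRNAs took 2.08% to 2.61% of the normalized counts of a library. The 10 most abundant sgRNAs of the whole library took 10.6%, 6.23% and 8.91% in Taxol 1, 2 and 3, against at most 2.80% in a DMSO or AP library, and none of them was a PRC1 sgRNA in any library. The most abundant PRC1 sgRNA was epikol_v2_4375 (PCGF6) in Taxol 1 with 0.113% of the counts, epikol_v2_1042 (CBX8) in Taxol 2 with 0.0770%, and epikol_v2_1023 (CBX6) in Taxol 3 with 0.138%.

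Taxol was set against DMSO to ask which knockouts made resistant cells rarer or more frequent in the presence of the drug. No PRC1 gene passed the test. Among the 19 genes, PCGF1 stood highest and PHC1 lowest in Taxol relative to DMSO, at 1.45-fold and 0.755-fold, and the median log2 fold change of the 19 was 0.09, beside 0.03 over all 779 genes. A gene value is the mean over its sgRNAs of log2(normalized count + 1), on which differences between low counts come out too small, and it is printed for each library as the geometric mean that this gives back. With limma on these gene means and Benjamini-Hochberg adjustment over 779 genes, 0 of 19 PRC1 genes were called, beside 1 of 779 genes (0.128%). With the replicate number as a block, 3 genes of the 779 were called, and still no PRC1 gene. At an unadjusted p under 0.05, 1 of 19 PRC1 genes passed (5.26%), beside 48 of 779 genes (6.16%), a share near that of the members. Robust rank aggregation (RRA), which asks whether the sgRNAs of a gene lie together at one end of the ranking of all sgRNAs, called no PRC1 gene either, beside 2 of 779 genes (0.257%) at the low end and 1 (0.128%) at the high end. At an unadjusted RRA p under 0.05 no PRC1 gene passed, beside 4.75% of genes at the low end and 6.55% at the high end. Of the 19 genes 5 had a log2 fold change below 0, beside 44.9% of all genes.

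Neither of the ligases, on which the activity of every PRC1 complex rests, passed the test. RNF2, which carries most of the PRC1 activity of mouse embryonic stem cells, had geometric means of 450.1, 412.8 and 668.4 normalized counts in Taxol 1, 2 and 3, against 564.5, 555.7 and 744.3 in DMSO 1, 2 and 3. Each Taxol library was below the DMSO library of its number, but the groups overlapped. The log2 fold change of RNF2 was -0.30 (SE 0.25), with an adjusted p of 0.888 in limma, and 6 of its 10 sgRNAs were lower in Taxol. Part of this rested on 1 sgRNA: without epikol_v2_5215, left out after its value was seen, the log2 fold change was -0.13. The study names RNF2 among the genes identified in its knockout screen, for which it applied a gene-level cutoff of P under 0.05. Here RNF2 had an unadjusted RRA p of 0.0694 at the low end, and an adjusted one of 0.969. This RRA ranked sgRNAs by their limma statistic and was not the study's own run, whose p-values were not used, so the 2 are not directly comparable. RING1, the paralog, had a log2 fold change of -0.05 (SE 0.22), with 6 of its sgRNAs lower in Taxol.

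Among the PCGF proteins, PCGF1, the defining subunit of the KDM2B- and BCOR-containing complex, gave the only unadjusted p under 0.05. Its geometric means were 353.1, 422.6 and 537.6 normalized counts in Taxol 1, 2 and 3, against 247.8, 472.2 and 225.6 in DMSO 1, 2 and 3. The groups overlapped, because DMSO 2 stood above Taxol 1 and Taxol 2. This gave a log2 fold change of 0.53 (SE 0.25), with an unadjusted p of 0.0359 and an adjusted p of 0.748 in limma. With the replicate number as a block, these limma p-values were 0.0132 and 0.412. All 10 PCGF1 sgRNAs had higher values in Taxol, from 0.02 to 1.53 on the log2 scale, and the unadjusted RRA p at the high end was 0.308. The value depended on single libraries. It was 0.86 without DMSO 2, and without Taxol 3, DMSO 1 or DMSO 3 it was 0.37, 0.40 and 0.33 with unadjusted limma p of 0.18, 0.172 and 0.216. PCGF2 and BMI1, the PCGF proteins of canonical PRC1, had log2 fold changes of 0.09 and -0.19. PCGF3 and PCGF5, a pair that can replace each other in one type of variant complex, had 0.09 and 0.03, and PCGF6, found with the MGA and MAX transcription factors, had -0.23.

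The chromobox genes lay between 0.05 (CBX6) and 0.21 (CBX8) on the log2 scale, with CBX2 at 0.18 and CBX7 at 0.18. CBX8 had all 3 Taxol libraries above all 3 DMSO libraries, at 432.0, 448.2 and 382.9 normalized counts in Taxol, against 338.4, 374.8 and 378.4 in DMSO. Its lowest Taxol library and its highest DMSO library were nearly equal, and its adjusted p was 0.909 in limma. PHC1 was the other gene of the 19 whose libraries did not overlap, with 394.2, 554.8 and 507.0 normalized counts in Taxol 1, 2 and 3, against 608.4, 745.9 and 568.6 in DMSO 1, 2 and 3. Every Taxol library was below every DMSO library, and 8 of the 10 PHC1 sgRNAs were lower in Taxol. The log2 fold change of PHC1 was -0.41 (SE 0.24), which ranked 28th from the lowest of 779 genes, with an unadjusted p of 0.0986 and an adjusted p of 0.839 in limma. The 2 genes without overlap were 10.5% of the 19, beside 10.8% of all genes, of which 6.29% had Taxol above DMSO and 4.49% had Taxol below it. PHC2 and PHC3, the other Polyhomeotic genes, had log2 fold changes of 0.00 and 0.20.

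Of the variant subunits, KDM2B had geometric means of 649.7, 690.1 and 1168 normalized counts in Taxol 1, 2 and 3, against 544.0, 533.1 and 678.7 in DMSO 1, 2 and 3. Taxol 3 stood far above the rest, and Taxol 1 lay below DMSO 3. The log2 fold change of KDM2B was 0.47 (SE 0.26), with an unadjusted p of 0.0804 and an adjusted p of 0.839 in limma, and it was 0.20 without Taxol 3. BCOR, the corepressor of the same complex, had 678.1, 508.5 and 601.6 normalized counts in Taxol 1, 2 and 3, against 382.0, 598.3 and 488.1 in DMSO 1, 2 and 3. Taxol 2 lay below DMSO 2, and the log2 fold change was 0.30 (SE 0.24), with 7 of 10 sgRNAs higher in Taxol. RYBP and YAF2, which take the place of CBX proteins in variant complexes, had log2 fold changes of 0.02 and 0.16.

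The comparison of DMSO with AP gives the change over 16 population doublings without the drug. BMI1, the PCGF protein of canonical PRC1 best known for its part in stem cell renewal, had the highest value of the 19 genes at 1.49-fold, and PCGF2 the lowest at 0.860-fold. None was called. By limma, 0 of 19 PRC1 genes passed the adjusted test, beside 17 of 779 genes (2.18%), and 1 of 19 (5.26%) had an unadjusted p under 0.05, beside 165 genes (21.2%). RRA called 0 of 19 at either end, beside 2.05% of genes at the low end and 0.128% at the high end, and no PRC1 gene passed at an unadjusted p under 0.05, beside 11.8% and 8.09%. The shares of PRC1 genes past these thresholds were under those of all genes, a difference that was not tested. The libraries did not overlap for 7 of the 19 genes (36.8%), all with DMSO above AP, beside 29.3% of all genes in that direction, 14.1% in the other and 43.4% in either. The genes without overlap were RNF2, BMI1, PCGF3, CBX6, PHC2, RYBP and KDM2B. Only PCGF1, PCGF2 and CBX7 had log2 fold changes below 0, 3 of 19 genes, beside 36.7% of all genes.

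BMI1 had geometric means of 790.0, 1382 and 1062 normalized counts in DMSO 1, 2 and 3, against 755.1 and 661.6 in AP 1 and AP 3. All DMSO libraries were above both AP libraries, with DMSO 1 only just so. BMI1 thus had a log2 fold change of 0.57 (SE 0.24), with an unadjusted p of 0.0271 and an adjusted p of 0.192 in limma, and 8 of 10 sgRNAs were higher in DMSO. Without DMSO 2 the value was 0.37 (unadjusted limma p 0.06), and the unadjusted p was 0.0611 without DMSO 3, 0.0697 without AP 1 and 0.198 without AP 3.

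The libraries of DMSO and AP placed the other PRC1 genes as follows. KDM2B had 728.3, 762.6 and 913.0 normalized counts in DMSO 1, 2 and 3, against 559.2 and 676.7 in AP 1 and AP 3, a log2 fold change of 0.37 (SE 0.21). BCOR had 511.4, 856.1 and 656.6 in DMSO 1, 2 and 3, against 403.1 and 620.0 in AP 1 and AP 3, and its log2 fold change of 0.40 (SE 0.25) became 0.09 without AP 1. KDM2B was separated between the groups and BCOR was not, since AP 3 lay above DMSO 1 for BCOR. PCGF1 had 331.7, 675.5 and 303.4 normalized counts in DMSO 1, 2 and 3, against 411.6 and 496.6 in AP 1 and AP 3. DMSO 2 stood above both AP libraries and the other 2 DMSO libraries below them. The PCGF1 log2 fold change was -0.15 (SE 0.29), with 9 of its 10 sgRNAs lower in DMSO, and it was -0.51 without DMSO 2 (unadjusted limma p 0.0306), 0.00 without DMSO 1 and 0.07 without DMSO 3. PCGF3 had 604.3, 540.8 and 713.4 normalized counts in DMSO 1, 2 and 3, against 418.0 and 528.6 in AP 1 and AP 3, and its log2 fold change of 0.39 (SE 0.22) had an adjusted limma p of 0.316. The remaining genes lay between -0.22 (PCGF2) and 0.31 (RNF2), with RING1 at 0.04, CBX7 at -0.03, PHC1 at 0.19, PHC2 at 0.29 and RYBP and YAF2 at 0.17 each.

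The comparison of Taxol with AP uses the same AP libraries as the previous one and the same Taxol libraries as the first, in a table that was scaled separately. PCGF1 itself was at 0.43 on the log2 scale, below PCGF3 at 0.52. KDM2B and BCOR of the PCGF1 complex gave the highest values of the 19 genes, at 1.85-fold and 1.67-fold, both with all 3 Taxol libraries above both AP libraries. Neither was called. By limma, 0 of 19 PRC1 genes passed the adjusted test, beside 1 of 779 genes (0.128%), and 3 of 19 (15.8%) had an unadjusted p under 0.05, beside 181 genes (23.2%). RRA called 0 of 19, beside 4.62% of genes at the low end and 1.41% at the high end. At an unadjusted RRA p under 0.05, KDM2B and BCOR passed at the high end, beside 65 of 779 genes (8.34%), and no PRC1 gene at the low end, beside 13.1%.

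KDM2B had geometric means of 701.9, 745.0 and 1272 normalized counts in Taxol 1, 2 and 3, against 426.9 and 519.0 in AP 1 and AP 3. Taxol 3 was the highest, and the lowest Taxol library still stood above both AP libraries. In limma the log2 fold change was 0.89 (SE 0.28), with an unadjusted p of 0.00703 and an adjusted p of 0.118, and with RRA an adjusted p of 0.239. All 10 sgRNAs were higher in Taxol, from 0.03 to 3.16 on the log2 scale. The top one, epikol_v2_3170, had 5031, 2745 and 8834 normalized counts in Taxol 1, 2 and 3, against 552.5 and 556.5 in AP 1 and AP 3. It exceeded both AP libraries in each Taxol library, but its unadjusted p of 0.00226 became 0.737 after adjustment over 7855 sgRNAs in limma. Without this sgRNA, left out after its value was seen, the KDM2B log2 fold change was 0.64 with an unadjusted p of 0.0329 in limma, and the other 9 sgRNAs were all higher in Taxol. Leaving out AP 1 gave a KDM2B log2 fold change of 0.75 with an unadjusted limma p of 0.0957.

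BCOR had 732.6, 549.0 and 655.0 normalized counts in Taxol 1, 2 and 3, against 307.7 and 475.6 in AP 1 and AP 3. AP 1 was far below AP 3, and both were below every Taxol library. The log2 fold change was 0.74 (SE 0.24), with an unadjusted p of 0.00817 and an adjusted p of 0.121 in limma and an adjusted RRA p of 0.412, and 9 of 10 sgRNAs were higher in Taxol. Without AP 1 it was 0.43, with an unadjusted limma p of 0.258. PCGF1 itself, the partner of both, had 381.4, 456.2 and 585.2 normalized counts in Taxol 1, 2 and 3, against 314.2 and 380.9 in AP 1 and AP 3. Taxol 1 and AP 3 were nearly equal, and the log2 fold change was 0.43 (SE 0.23) with an adjusted limma p of 0.253.

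PCGF3 had 663.9, 402.6 and 515.3 normalized counts in Taxol 1, 2 and 3, against 319.1 and 405.6 in AP 1 and AP 3. Taxol 2 lay just below AP 3, so the groups overlapped. The log2 fold change was 0.52 (SE 0.24), with an unadjusted p of 0.0493 and an adjusted p of 0.212 in limma. It was 0.34 without Taxol 1 (unadjusted p 0.145) and 0.35 without AP 1 (unadjusted p 0.325), and the unadjusted limma p was 0.0904 without Taxol 3. BMI1 had 731.4, 736.4 and 711.5 normalized counts in Taxol 1, 2 and 3, against 576.3 and 507.5 in AP 1 and AP 3, a log2 fold change of 0.42 (SE 0.22) with no overlap. Libraries did not overlap for 10 of the 19 genes (52.6%), all with Taxol above AP, beside 32.3% of all genes in that direction, 14.5% in the other and 46.9% in either. The genes were BMI1, PCGF1, PCGF5, CBX6, CBX8, PHC2, PHC3, YAF2, KDM2B and BCOR. Only PHC1, at -0.17, and PCGF2, at -0.08, had negative log2 fold changes, 2 of 19 genes, beside 32.3% of all genes, and the ligases RING1 and RNF2 were at 0.03 and 0.05. The 10 genes not yet given lay between 0.06 (PCGF6) and 0.38 (YAF2), with the CBX genes at 0.20 to 0.36.

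These directions depended on how the libraries were scaled. The 80 non-targeting sgRNAs, which should not alter growth, had median log2 fold changes of 0.11 in Taxol against DMSO, 0.43 in DMSO against AP and 0.68 in Taxol against AP, all above the medians of the 190 PRC1 sgRNAs (0.05, 0.15 and 0.26). With each library centred on its non-targeting sgRNAs, the median log2 fold change of the 19 PRC1 genes became -0.08, -0.14 and -0.18 in the same order, beside -0.14, -0.16 and -0.33 over all genes. This centring moves every gene of a comparison by the same amount, so the gap between members and all genes could not change. The member median stayed above that of all genes for this reason, and it fell below 0. Of the 19 genes, 12, 15 and 17 then had negative values, against 5, 3 and 2 with the deposited scaling. KDM2B stayed above 0 under this scaling in each comparison, at 0.30, 0.06 and 0.36, and so did BCOR, at 0.13, 0.09 and 0.22. Neither kept an unadjusted p under 0.05 in Taxol against AP. The unadjusted limma p there was 0.199 for KDM2B and 0.418 for BCOR, against 0.00703 and 0.00817 with the deposited scaling. With libraries brought to the same total it was 0.603 for KDM2B and 0.992 for BCOR. With libraries brought to the same total, BCOR was at -0.01, 0.02 and 0.00, KDM2B was at 0.16, -0.01 and 0.15, and the median of the 19 genes was -0.22, -0.21 and -0.40, beside -0.28, -0.24 and -0.54 over all genes. In Taxol against AP, PHC1 was at -0.70 with non-targeting centring and passed the adjusted test (adjusted limma p 0.0492), in a fit that called 154 of 779 genes.

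Canonical and variant subunits were set side by side as the 7 CBX and PHC genes and the 4 genes RYBP, YAF2, KDM2B and BCOR, as a description without a test. In Taxol against DMSO, the median log2 fold change was 0.18 for canonical and 0.23 for variant subunits, a difference of -0.06, which became 0.02 without DMSO 1 and 0.29 when each gene was given by the median of its sgRNAs. In DMSO against AP the medians were 0.12 for canonical and 0.27 for variant subunits, a difference of -0.15, which became 0.01 without AP 1. In Taxol against AP they were 0.34 for canonical and 0.56 for variant subunits, a difference of -0.22, which became -0.02 without AP 1. The canonical set thus had the lower median in each comparison, and the sign or the size of the gap rested on 1 library each time.

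The same gap can be followed library by library in Taxol against AP. The mean log2 value of the variant subunits was 9.08, 8.84 and 9.14 in Taxol 1, 2 and 3, against 8.29 and 8.63 in AP 1 and AP 3. For the canonical subunits it was 9.20, 9.09 and 9.15 in Taxol 1, 2 and 3, against 8.89 and 8.91 in AP 1 and AP 3. Both sets were higher in every Taxol library than in either AP library, as was the mean of all genes, at 8.86, 8.70 and 8.78 in Taxol 1, 2 and 3, against 8.59 and 8.63 in AP 1 and AP 3. The AP libraries differed from each other more for the variant than for the canonical subunits. Within the variant set KDM2B and BCOR accounted for the upper values, with RYBP at 0.24 and YAF2 at 0.38 in this comparison. A wider split, with BMI1 and PCGF2 added to the canonical and the other 4 PCGF genes to the variant set, gave medians of 0.09 for canonical and 0.13 for variant subunits in Taxol against DMSO, 0.12 for canonical and 0.20 for variant subunits in DMSO against AP, and 0.34 for canonical and 0.41 for variant subunits in Taxol against AP.

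The PRC1 sgRNAs varied about as much as the non-targeting sgRNAs did. The SD of the log2 fold change over the 190 PRC1 sgRNAs was 0.67, 0.65 and 0.67 in the 3 comparisons, beside 0.67, 0.66 and 0.66 over the 80 non-targeting sgRNAs. In Taxol against DMSO 87 of the 190 (45.8%) were below 0, beside 47.8% of all sgRNAs, in DMSO against AP 78 (41.1%), beside 43.2%, and in Taxol against AP 66 (34.7%), beside 42.2%. The PRC1 genes differed in this spread. In Taxol against DMSO the SD over the 10 sgRNAs of a gene was lowest for CBX7, at 0.39, and highest for PCGF2, at 0.92.

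No single PRC1 sgRNA passed the adjusted limma test in any comparison, and none of the 7855 did. At an unadjusted p under 0.05, 7 of 190 passed in Taxol against DMSO (3.68%), beside 3.56% of all sgRNAs, 5 in DMSO against AP (2.63%), beside 6.86%, and 8 in Taxol against AP (4.21%), beside 6.14%. Among those that passed, the lowest log2 fold changes in Taxol against DMSO were those of RNF2 epikol_v2_5215 (-1.90), CBX8 epikol_v2_1045 (-1.47) and PCGF6 epikol_v2_4371 (-1.23). The highest were those of PCGF2 epikol_v2_4343 (2.45), KDM2B epikol_v2_3170 (2.26) and CBX2 epikol_v2_985 (1.83). High values of single sgRNAs stood beside uneven ones of the same gene. PCGF2 epikol_v2_4343 had 1948, 122.2 and 125.4 normalized counts in Taxol 1, 2 and 3, against 55.8, 75.2 and 42.4 in DMSO 1, 2 and 3, while 6 of the 10 PCGF2 sgRNAs were lower in Taxol.

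Some sgRNAs passed in more than 1 comparison, but the comparisons share libraries. CBX2 epikol_v2_985 had 1166, 88.2 and 171.7 normalized counts in Taxol 1, 2 and 3, against 75.3, 97.5 and 51.8 in DMSO 1, 2 and 3, so that Taxol 1 alone made most of the difference. In DMSO against AP the same sgRNA was at -1.67, and the highest that passed were BCOR epikol_v2_690 (2.03), CBX8 epikol_v2_1045 (1.93) and PCGF2 epikol_v2_4345 (1.52). CBX8 epikol_v2_1045 had 1238, 819.2 and 542.1 normalized counts in DMSO 1, 2 and 3, against 209.5 and 219.7 in AP 1 and AP 3, and the table of Taxol and AP gave 171.0, 261.3 and 280.3 in Taxol 1, 2 and 3, against 159.9 and 168.5 in AP 1 and AP 3. In Taxol against AP those that passed below 0 were CBX2 epikol_v2_982 (-1.38) and BMI1 epikol_v2_713 (-1.16), and the highest that passed after KDM2B epikol_v2_3170 were CBX2 epikol_v2_984 (2.17) and PCGF1 epikol_v2_4339 (1.72). CBX2 thus had sgRNAs at both ends of that comparison, and its gene value was 0.27 with 5 of 10 sgRNAs higher in Taxol. The sgRNAs are named by their identifiers in the deposited tables, which pair them with genes and not with target sites.

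Genes that work with PRC1 were counted from 3 lists, and none of their members was called by limma after adjustment. RRA called 4 of them after adjustment, all at the low end in Taxol against AP, where it called 4.62% of all genes: RBBP7 (adjusted RRA p 0.00247), RBBP4 (0.0184), EED (0.0326) and BAP1 (0.0198). Of 22 further PRC1-linked genes 19 were measured. At an unadjusted p under 0.05, SFMBT1 (0.62) was higher in Taxol than in DMSO, 1 of 19 genes (5.26%), beside 6.16% of all genes. In Taxol against AP SFMBT1, CBX3 and L3MBTL4 were higher and MAX was lower, 4 of 19 (21.1%), beside 23.2% of all genes. In DMSO against AP, 4 of the 19 were higher (CBX3, L3MBTL1, L3MBTL4 and SCML2) and USP7, a deubiquitinase of the PCGF1 complex, was lower at -0.69, together 26.3% of the list, beside 21.2% of all genes. Beside KDM2B and BCOR, the further subunits of the PCGF1 complex had log2 fold changes of 0.18 (BCORL1), -0.16 (SKP1) and -0.29 (USP7) in Taxol against AP, with the test of the differences between them not run and these genes chosen after their values were seen.

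All 11 subunits listed for PRC2, the complex that places the histone mark which CBX proteins bind, were measured. At an unadjusted p under 0.05, the histone chaperone RBBP7 was lower in Taxol than in DMSO (-0.54), RBBP4 was lower and EZH1 and JARID2 higher in DMSO than in AP, and EED, RBBP4 and RBBP7 were lower and JARID2 higher in Taxol than in AP. These were 1, 3 and 4 of the 11 genes, or 9.09%, 27.3% and 36.4%, beside 6.16%, 21.2% and 23.2% of all genes in the same comparisons. RBBP4 and RBBP7 belong to several other chromatin complexes as well. Of the 7 enzymes and partners that remove the PRC1 mark from histone H2A, MYSM1 was higher in DMSO than in AP (0.49), 1 of 7 genes (14.3%), beside 21.2% of all genes. In Taxol against AP MYSM1 was higher (0.93) and BAP1 lower (-0.70), 2 of 7 (28.6%), beside 23.2% of all genes.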

How the data were processed

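The authors' deposited tables, made with MAGeCK 0.5.8 per the submitters' processing notes, hold normalized counts of each sgRNA, 1 cell for all libraries of a group, and each of the 3 tables was scaled on its own. Read trimming, mapping options and the genome build are not given in the sources used here. The authors' own fold changes, p-values and gene summaries, also deposited, were not used. Values in a cell were taken in the order of the replicate numbers in the table names; the second AP value has no sample in the labels used here, which left out 2 columns of values. The 1 header row counted as an sgRNA was left out. In every library the deposited values rose in equal steps of 1 read (100% of low values whole within 0.1 read), which gave the reads per library.

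Values were transformed as log2(normalized count + 1), averaged over the sgRNAs of each of 779 genes with at least 3 sgRNAs, and tested with limma 3.58.1 in R 4.3.3 (lmFit, eBayes with trend, no covariates), within a table, with Benjamini-Hochberg adjustment over all genes and a threshold of 0.05. Single sgRNAs were tested likewise. RRA, the gene test the study names, was run on the sgRNAs ranked by the moderated statistic, with ranks limited to 25% and exact p-values in each direction; these compare ranks of sgRNAs, not libraries. The code was tested on simulated data.

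In the table of Taxol and DMSO, the deviations of same-numbered libraries from their group means correlated at 0.17, 0.13 and 0.21 across sgRNAs, so the numbers were taken to pair these samples. Those of different numbers were below 0, which follows in part from taking deviations from group means and adds no support. The limma values printed in the Results are still from the fit without the block, unless the block is named. Precision rests on 2 or 3 libraries a group, and the shallowest, Taxol 2, had 260.47 reads per sgRNA. Counts come from PCR reads without molecular identifiers.

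The PRC1 genes, the lists and the tests were chosen with earlier results of these data known. Values per library are printed for genes with an unadjusted p under 0.05 or separated libraries with an absolute log2 fold change of at least 0.5, and for others beside them that were chosen after their values were seen; single sgRNAs are named at an unadjusted p under 0.05, at most the 3 lowest and 3 highest a comparison. Alternatives were another pseudocount, a filter on low means, scaling on non-targeting sgRNAs or to the same total, the median over sgRNAs, eBayes without trend, the replicate block and each library left out.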

Additional observations from a re-analysis of the deposited data

How the results depend on the processing

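No PRC1 gene was called by limma in Taxol against DMSO or in DMSO against AP under any alternative run. In Taxol against AP PHC1 (-0.70) was called with non-targeting centring and KDM2B (1.00, adjusted limma p 0.0396) with the replicate block, 1 gene each. In that block fit Taxol 2 does not enter the fold changes. A pseudocount of 5 and a filter at a mean of 30 normalized counts moved no count or median by more than 1.5 times or the spread between libraries. Same-numbered AP libraries gave no sign of pairing with the others (2 pairs, correlations between -0.02 and 0.04). With 2 AP libraries, the correlations of another library with them are equal and opposite by construction, so they say little. No AP library numbered 2 was used, so with the block DMSO 2 or Taxol 2 added nothing to the fold changes. The median over all genes was the same with the block as without that library, 0.07 in DMSO against AP and 0.24 in Taxol against AP. Gene calls with the block were 67 in DMSO against AP and 64 in Taxol against AP. In DMSO against AP it gave 4 PRC1 genes at an unadjusted p under 0.05 and 19 sgRNA calls. In Taxol against DMSO it gave 3 gene calls. With non-targeting centring, Taxol against DMSO had 0 PRC1 genes at the unadjusted threshold, a member median of -0.084 and 6 RRA calls, DMSO against AP had 0 and -0.14, and Taxol against AP had 154 gene calls and a member median of -0.18. In Taxol against AP the PRC1 genes at that threshold were then PCGF2 (-0.60, unadjusted limma p 0.0354) and PHC1 (-0.70, 0.00962), both lower. KDM2B, BCOR and PCGF3, which passed it in the main fit with higher values, no longer did. With equal totals, gene calls were 2, 103 and 51 and member medians -0.22, -0.21 and -0.40 in the same order, and 2 PRC1 genes (RNF2 and PHC1, both lower) passed the unadjusted threshold in Taxol against DMSO. Those that passed it elsewhere were PCGF2 (-0.60) in DMSO against AP, and RNF2 (-0.69) and PHC1 (-0.91) in Taxol against AP. With the median over sgRNAs, Taxol against DMSO had 0 PRC1 genes at the unadjusted threshold and a canonical minus variant difference of 0.29, DMSO against AP had 6 gene calls and a member median of 0.045, and Taxol against AP had 5 gene calls, 1 PRC1 gene at the unadjusted threshold (CBX8) and a member median of 0.18. Without the eBayes trend Taxol against AP had 5 gene calls. RRA calls were 9 in DMSO against AP and 19 in Taxol against AP with ranks limited to 10%, and 27 in DMSO against AP when ranked by fold change. The causes of these shifts were not tested.

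With each library left out in turn, gene calls ranged from 0 to 4 in Taxol against DMSO, from 0 to 33 in DMSO against AP (33 without DMSO 2) and from 0 to 9 in Taxol against AP (9 without Taxol 2). PRC1 genes at the unadjusted threshold ranged from 0 to 2, 0 to 4 and 0 to 4, member medians from 0.01 to 0.13, 0.11 to 0.19 and 0.27 to 0.34, and canonical minus variant differences from -0.22 to 0.02, -0.25 to 0.01 and -0.42 to -0.02. RRA calls ranged from 1 to 4, 12 to 25 and 3 to 38, and sgRNA calls from 0 to 1 in DMSO against AP. Leaving out an AP library leaves 1, which is assumed to vary like the other group. Over all alternatives, 38 of 247 gene values in Taxol against DMSO, 44 of 228 in DMSO against AP and 41 of 228 in Taxol against AP changed sign. No PRC1 gene was called in the main fit, so none of these values could be of a called gene. The count test on recovered reads was not run, since the deposited cells join several libraries. With SEs of 0.20 to 0.29 for a PRC1 gene, differences of that size were not detectable, and larger ones also went without a call. KDM2B, at 0.89 (SE 0.28) in Taxol against AP, had an adjusted limma p of 0.118 in the main fit.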
